A study of Mus musculus with 3 samples.

Results

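The genes described here encode the main proteins of the basement membrane, together with Sparc. They are 10 genes picked by symbol, of 50043 gene IDs in the table: the laminin chains Lama1, Lama5, Lamb1 and Lamc1, the type IV collagen chains Col4a1 and Col4a2, the nidogens Nid1 and Nid2, perlecan (Hspg2) and Sparc. Each matched 1 Ensembl ID, and all 10 had FPKM (fragments counted on a gene, divided by its length in kilobases and by the library total) above 1 in every library. RNA was sequenced from KH2 mouse embryonic stem cells carrying an inducible Pold3 knockout. The groups are passage P0, passage P1 and passage P2, with a single library at each, and all 3 share the cell line and the inducible allele. The sources used here give neither the time of induction relative to P0, nor the inducing agent, nor any feeder cells. KH2 cells are an engineered line in which transgenes can be placed at a docking site beside the Col1a1 gene.

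A basement membrane is a thin sheet of matrix under epithelia. Laminin, a trimer of an alpha, a beta and a gamma chain, assembles first on the cell surface, and a network of type IV collagen forms beside it. Nidogens and perlecan link these networks. Sparc is a secreted, collagen-binding glycoprotein that is made in large amounts by the parietal endoderm of the mouse embryo, which lays down the thick Reichert's membrane. In embryoid bodies the first basement membrane separates an outer endoderm from the inner epiblast-like cells.

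With 1 library per passage no difference below has a replicate check, so no p-value is given. Ratios carry exact 95% intervals (Clopper-Pearson) on the reads recovered from the FPKM values, and these cover counting error of the libraries compared only. The P0 library held 23213528 reads, the P1 library 18059914 and the P2 library 22405670. A gene is said to rise or fall when log2(FPKM + 1) differed by at least 1, provided its FPKM reached 1 in either library. Pold3 measured 49.2, 13.0 and 11.6 FPKM at P0, P1 and P2, so the targeted gene was lower in both later libraries. In bulk RNA, fewer cells of a type and less RNA per cell cannot be told apart.

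Sparc and the type IV collagen genes were higher at each later passage, and they are the members that rose. The laminin alpha chains went opposite ways, with Lama5 higher and Lama1 lower. Lamb1 and Hspg2 were slightly higher than at P0, and Lamc1, Nid1 and Nid2 slightly lower.

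**Figure D1:**
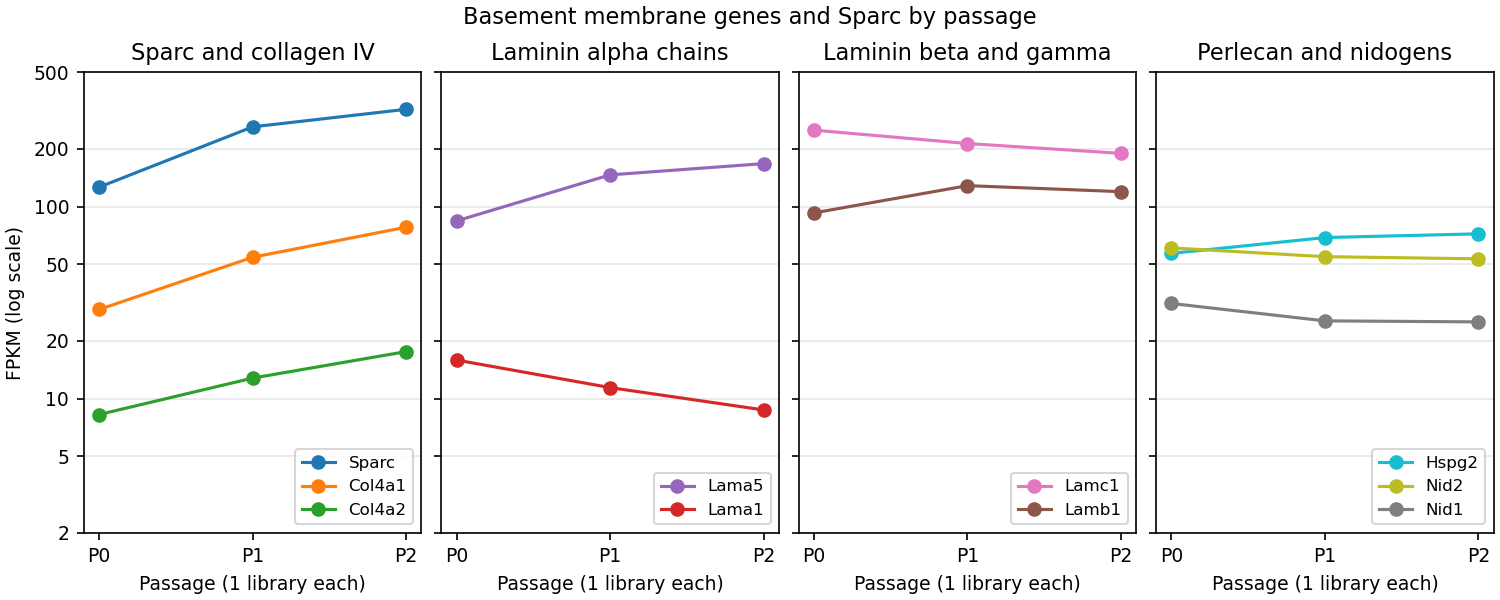
FPKM (log scale) of the 10 genes at P0, P1 and P2, 1 library each, in panels by role. Sparc, Col4a1, Col4a2 and Lama5 climb at each passage, Lama1 and Lamc1 decline at each passage, and the nidogens and Hspg2 stay close to their P0 level.

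Sparc measured 126, 260 and 321 FPKM at P0, P1 and P2, from 3757, 6020 and 9219 reads. The largest step lay between P0 and P1. The ratio of P1 to P0 was 2.06 (interval 1.98 to 2.15), that of P2 to P0 2.54 (interval 2.45 to 2.64) and that of P2 to P1 1.23 (interval 1.19 to 1.28). It stood above 91.7% of the genes with FPKM of at least 1 at P0, 96.6% at P1 and 97.4% at P2. On the log2(FPKM + 1) scale the differences from P0 were 1.04 at P1 and 1.34 at P2. Sparc at P1 was near the limit: relative to the median of all genes compared its difference was 0.98, and with median-of-ratios scaling it was 0.92.

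Col4a1 encodes the alpha 1 chain of type IV collagen and Col4a2 the alpha 2 chain, which join in a shared trimer. Col4a1 measured 29.1, 54.4 and 78.0 FPKM at P0, P1 and P2, from 1446, 2104 and 3743 reads. Col4a2 measured 8.26, 12.8 and 17.6 FPKM, from 520, 626 and 1067 reads. Both were higher in each library than in the one before. Col4a1 was 2.68-fold higher at P2 than at P0 (interval 2.52 to 2.85), and Col4a2 2.13-fold (interval 1.91 to 2.37). The ratio of P2 to P1 was 1.43 for Col4a1 (interval 1.36 to 1.51) and 1.37 for Col4a2 (interval 1.24 to 1.52); the interval for Col4a1 lies above that of Sparc and the interval for Col4a2 overlaps it. Col4a2 passed the limit at P2 by a narrow margin, with a log2 difference of 1.003. Its value was 0.93 relative to the median of all genes compared, 0.88 with median-of-ratios scaling and 0.90 with quantile normalization.

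The 2 collagen genes lie head to head on chromosome 8, so their start regions are shown to let the shared stretch be seen. RefSeq windows from 250 bases before to 50 bases after the start site (GRCm38.p6) were matched for 7 of the 10 members, all but Lama1, Lamc1 and Nid2. The window of Col4a1 is chr8:11312777-11313076 on the minus strand and that of Col4a2 is chr8:11312555-11312854 on the plus strand. Capitals mark the 78 bases that both windows hold, read from opposite strands.
Col4a1: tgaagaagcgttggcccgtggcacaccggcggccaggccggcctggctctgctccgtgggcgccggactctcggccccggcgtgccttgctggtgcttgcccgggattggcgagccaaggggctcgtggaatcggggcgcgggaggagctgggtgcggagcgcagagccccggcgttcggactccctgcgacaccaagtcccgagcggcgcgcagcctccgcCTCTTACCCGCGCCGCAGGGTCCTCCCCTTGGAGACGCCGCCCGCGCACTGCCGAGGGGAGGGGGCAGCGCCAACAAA
Col4a2: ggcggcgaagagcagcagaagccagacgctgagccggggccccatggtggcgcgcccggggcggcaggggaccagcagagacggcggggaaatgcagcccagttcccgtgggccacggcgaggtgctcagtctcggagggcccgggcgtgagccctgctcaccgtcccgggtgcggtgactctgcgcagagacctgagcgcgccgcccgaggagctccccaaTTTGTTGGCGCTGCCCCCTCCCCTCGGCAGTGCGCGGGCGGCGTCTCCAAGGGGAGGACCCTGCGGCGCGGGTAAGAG
The start sites used by RefSeq put the first 22 bases of each transcript opposite the other, a stretch in which reads without strand information cannot be assigned to 1 gene. Other genes that overlap Col4a1 or Col4a2 in GENCODE release M21 were listed at 0.0818 FPKM or less.

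The windows of Sparc (chr11:55420031-55420330, minus strand) and Lama5 (chr2:180225810-180226109, minus strand) are shown because these genes were higher at the later passages too and differ from each other in base composition. Capitals mark matches to GGGCGG on either strand, the GC box.
Sparc: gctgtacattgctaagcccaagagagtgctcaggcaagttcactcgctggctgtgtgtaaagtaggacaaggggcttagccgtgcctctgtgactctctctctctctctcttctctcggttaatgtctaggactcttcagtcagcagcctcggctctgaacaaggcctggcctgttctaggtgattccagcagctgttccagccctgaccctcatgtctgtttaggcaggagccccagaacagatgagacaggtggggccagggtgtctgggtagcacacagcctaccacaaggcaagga
Lama5: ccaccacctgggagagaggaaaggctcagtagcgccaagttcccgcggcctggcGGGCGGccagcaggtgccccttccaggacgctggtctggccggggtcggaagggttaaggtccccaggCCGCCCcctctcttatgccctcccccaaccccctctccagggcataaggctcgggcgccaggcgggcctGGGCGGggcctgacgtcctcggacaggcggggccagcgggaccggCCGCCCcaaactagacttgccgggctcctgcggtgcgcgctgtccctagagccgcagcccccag
The Sparc window held 4 CpG dinucleotides, more than 31.4% of the 32851 windows in the table, with 55.3% G and C. Those of Col4a1, Col4a2 and Lama5 held 37, 33 and 24, more than 94.4%, 91.4% and 80% of windows. Both strands were searched for GGGCGG, for the CCAAT box and for the TATA box (TATAAA), which 35.7%, 37.4% and 13.6% of all windows hold. GGGCGG matched at 4 places in Lama5, 3 in Col4a2, 1 in Col4a1, 2 in Lamb1, 1 in Nid1, 5 in Hspg2 and none in Sparc. The Col4a1 match lies in the shared stretch and is the same site as 1 of the 3 in Col4a2, read from the opposite strand. CCAAT matched at 1 place each in Col4a1, Col4a2, Lamb1 and Nid1, and TATAAA in none of the 7 windows. No match of one motif overlapped a match of another. Nid1, which was lower at P2, held GGGCGG as did members that were higher, and no match says only that these letters are not in the window.

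Lama5 and Lama1 encode the alpha chains of laminins that differ in where they act: Lama1 is the alpha chain of the early embryonic laminin and of Reichert's membrane, and Lama5 that of most epithelial and endothelial laminins, also made by embryonic stem cells. Lama5 measured 84.2, 146 and 167 FPKM at P0, P1 and P2, from 6375, 8610 and 12224 reads. Lama1 measured 15.9, 11.4 and 8.73 FPKM, from 3506, 1961 and 1861 reads. Lama5 stood at 1.74 times its P0 level at P1 (interval 1.68 to 1.79) and at 1.99 times at P2 (interval 1.93 to 2.05). Its log2 difference at P2 was 0.98, just short of the limit. Lama1 stood at 0.550 of its P0 level at P2 (interval 0.520 to 0.582), a log2 difference of -0.79 that also missed the limit, and at 0.765 of its P1 level (interval 0.718 to 0.815). The ratio of Lama5 to Lama1 in FPKM was 5.30 at P0, 12.8 at P1 and 19.2 at P2.

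Lamb1 and Lamc1 encode the beta and gamma chains that pair with either alpha chain. Lamb1 measured 92.6, 128 and 119 FPKM at P0, P1 and P2, and Lamc1 250, 213 and 189 FPKM. Lamb1 was 1.29-fold higher at P2 than at P0 (interval 1.24 to 1.34), while Lamc1 stood at 0.757 of its P0 level (interval 0.737 to 0.777). At P2 against P1 Lamb1 was slightly lower, at 0.930 of its P1 level (interval 0.898 to 0.964). None of these differences reached 2-fold. The 3 kinds of chain were thus less unequal at P2: the alpha chains summed (Lama1 and Lama5) had 0.401 of the Lamc1 level in FPKM at P0, 0.740 at P1 and 0.931 at P2, and Lamb1 had 0.371, 0.604 and 0.632.

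Levels of different genes depend on the length used. The length behind each FPKM value, recovered with the reads, was often far shorter than the full message: 28.7% of the longest M21 transcript for Lama5, 29.4% for Lamc1, 32.4% for Col4a1, 42.0% for Col4a2 and 43.9% for Lamb1, but 99.9% for Lama1 and 99.3% for Nid1. A gene's ratio between libraries is free of this, but levels of genes set against each other are not. In reads per kilobase of the longest M21 transcript, scaled to library size as in FPKM, a measure chosen after seeing the data, Lama5 was 1.52-fold above Lama1 at P0 (interval 1.46 to 1.59), 3.67-fold at P1 and 5.49-fold at P2. On that scale the alpha chains summed to 40.0, 53.3 and 56.6 at P0, P1 and P2, Lamb1 to 40.7, 56.3 and 52.4, and Lamc1 to 73.5, 62.6 and 55.7. At P2 the alpha sum was thus at 1.02 and Lamb1 at 0.942 of Lamc1 on this scale, whereas in FPKM Lamb1 stayed at 0.632 of Lamc1. Lamb2, the other beta chain with a high level, measured 29.0, 31.1 and 30.0 FPKM.

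**Figure D2:**
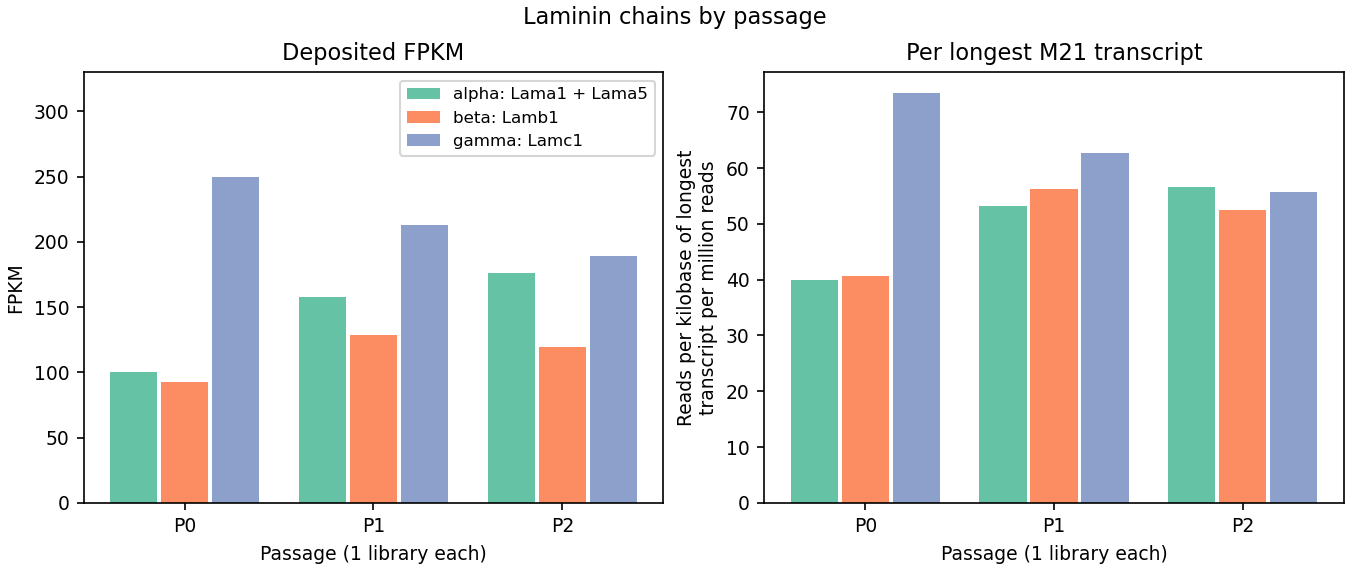
Levels of the laminin chains at P0, P1 and P2 (bars, 1 library each, no error bars as there are no replicates), in deposited FPKM on the left and in reads per kilobase of the longest M21 transcript, scaled to library size, on the right. The gamma chain (Lamc1) stands far above the others at P0 on both scales, and at P2 the alpha chains reach 0.931 of it on the left and 1.02 on the right.

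The nidogens bind the laminin gamma 1 chain and type IV collagen, and perlecan is the large heparan sulfate proteoglycan of the basement membrane. Nid1 measured 31.3, 25.4 and 25.1 FPKM at P0, P1 and P2, Nid2 60.9, 54.8 and 53.4 FPKM, and Hspg2 57.0, 68.9 and 72.1 FPKM. Nid1 stood at 0.802 of its P0 level at P2 (interval 0.767 to 0.839), Nid2 at 0.877 (interval 0.835 to 0.922) and Hspg2 at 1.26 (interval 1.23 to 1.29). For both nidogens the interval of the ratio of P2 to P1 held 1: it ran from 0.939 to 1.04 for Nid1 and from 0.923 to 1.03 for Nid2. Nid2 overlaps the gene Rtraf on the opposite strand over 437 bases in M21, and Rtraf measured 97.8, 90.6 and 87.0 FPKM, so part of the Nid2 value is uncertain. Per longest transcript Nid2 was at 0.982 of Nid1 at P0 (interval 0.939 to 1.03), while in FPKM it was 1.95-fold above it.

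**Figure D3:**
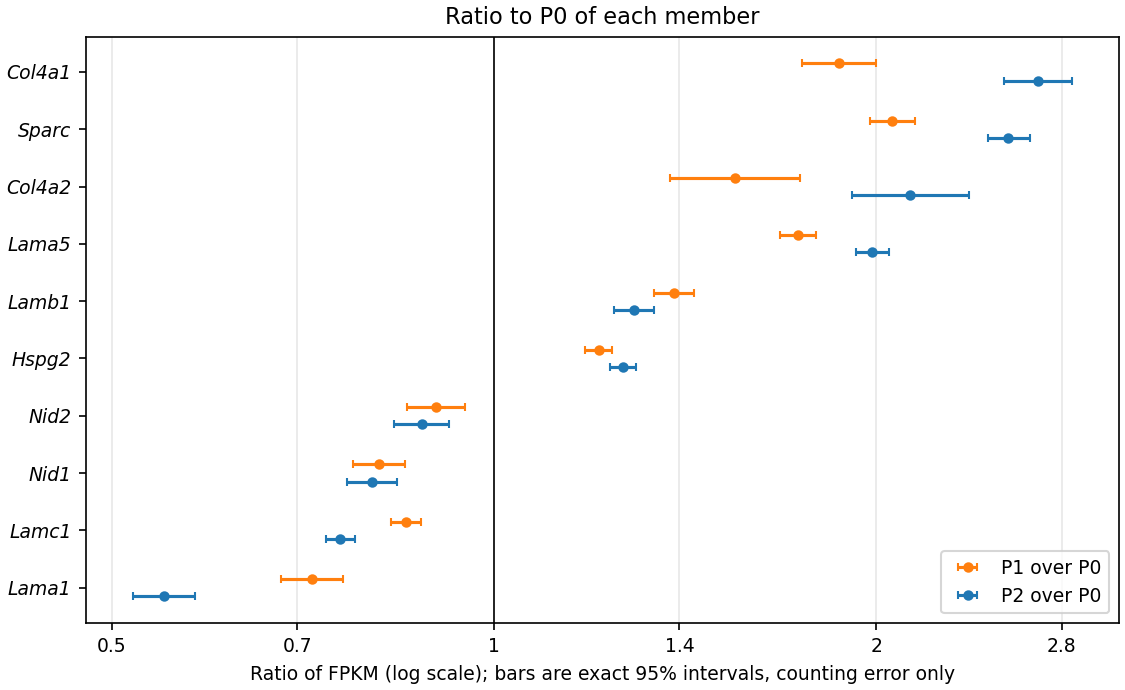
Ratio of FPKM at P1 and at P2 to P0 for each of the 10 genes (log scale), with exact 95% intervals that cover counting error only; both ratios share the P0 library. From the top, Col4a1, Sparc and Col4a2 lie above 2 at P2, Lama5 is at 1.99, and Lama1 is lowest at 0.550.

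Of the 10 members, 1 rose at P1 against P0 (10%), where 4.12% of 13288 genes compared did, and none fell, where 0.549% did. At P2 against P0 3 rose (30%), where 6.72% of 13472 genes did, and none fell, where 1.16% did. At P2 against P1 none rose or fell, where 0.78% and 0.883% of 13585 genes did. The comparisons with P0 share that library. The median log2 difference of the members was 0.37 at P1 and 0.35 at P2 against P0, beside 0.06 and 0.07 over all genes compared, and 0.02 at P2 against P1, beside 0.02. Those above P0 numbered 6 of 10 at both passages, a share of 60%, where 57.6% and 57.7% of all genes compared were above P0. The members ranged from -0.79 (Lama1) to 1.39 (Col4a1) at P2 against P0.

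The leading gene changed from Lamc1 at P0 to Sparc at P2 on both scales. Col4a2 stayed last per longest transcript, whereas in FPKM Col4a2 was last at P0 and Lama1 at P2. Per longest transcript, Lamc1 led at P0 with 73.5, followed by Sparc with 70.4, and the collagen chains came last with 9.42 and 3.47. At P2 Sparc led with 179, which was 3.21-fold above Lamc1 (interval 3.12 to 3.31) and 37.5% of the sum over the members, and Col4a1 had reached 25.3. In FPKM Sparc led at P2 as well, but was only 1.70-fold above Lamc1 (interval 1.65 to 1.75) with 30.5% of the sum, and Col4a1 was above Hspg2, with a ratio of 1.08 (interval 1.04 to 1.12). Per longest transcript Col4a1 lay at P2 between Nid2 with 26.7 and Nid1 with 24.9, and its ratio to Nid1 had an interval of 0.968 to 1.06. Lama1 and Col4a2 came last, with 8.72 and 7.38. Among neighbours in the order per longest transcript at P0 and P2, intervals held 1 only for Nid1 and Nid2 at P0 and for Col4a1 and Nid1 at P2. In FPKM Lamc1 led at P0 too, with 33.1% of the members' sum. The ratio of Col4a1 to Col4a2 in FPKM was 3.52 at P0 (interval 3.18 to 3.90), 4.26 at P1 and 4.44 at P2 (interval 4.15 to 4.76), and per longest transcript 2.71, 3.28 and 3.42.

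Of 28 other basement membrane genes, 15 were compared, of which 10 already stood at FPKM 1 or more at P0 and the rest only at a later passage. At P1 against P0 4 of the 15 rose, and at P2 5 rose and 1 fell, with a median log2 difference of 0.77. Of all genes compared, 4.12% rose at P1 against P0. At P2 6.72% rose and 1.16% fell, with a median of 0.07. Lamb3, the beta chain of the anchoring laminin of skin, measured 0.727, 3.92 and 7.48 FPKM at P0, P1 and P2, a ratio of P2 to P0 of 10.3 (interval 7.10 to 15.4). The alpha chain gene Lama3, named after its values were seen, measured 0.835, 1.88 and 2.13 FPKM, with a log2 difference at P2 of 0.77. Npnt, which encodes the integrin alpha 8 ligand nephronectin, rose to 14.3 FPKM at P2, against 1.90 at P0. Hmcn2 (hemicentin), Tinagl1 (a matricellular protein of basement membranes) and Fbln1 (fibulin) rose to 3.59, 9.90 and 52.1 FPKM at P2, against 0.268, 2.43 and 23.1 at P0. Ntn1, the guidance cue netrin, fell to 22.0 FPKM at P2, against 52.8 at P0, a ratio of 0.417 (interval 0.396 to 0.439). The alternative type IV collagen chains Col4a3, Col4a4, Col4a5 and Col4a6 were at 0.188 FPKM or less in every library.

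Receptors for these proteins were mostly higher. Among 17 of 19 receptor genes compared at P2 against P0, 15 were above P0, 4 rose and none fell, with a median of 0.57. Over all genes compared, 57.7% were above P0, 6.72% rose and 1.16% fell, with a median of 0.07. Of the 17 receptor genes, 13 already stood at FPKM 1 or more at P0. Itgb4, the beta chain that pairs with integrin alpha 6 to hold the skin-type laminin, measured 2.96, 10.4 and 12.2 FPKM at P0, P1 and P2. Itga8, a receptor chain for nephronectin, measured 0.875, 3.77 and 3.97 FPKM. Sdc4, a syndecan that binds laminin and collagen through its sugar chains, measured 49.0, 181 and 206 FPKM, and Ddr1, a collagen-activated receptor kinase, 27.5, 64.9 and 71.4 FPKM. All of these had reached the limit at P1 already. Sdc1 and Ddr2 had log2 differences at P2 of 0.91 and 0.88, and of 0.92 and 1.72 with a pseudocount of 0.1. The main laminin-binding integrin chains of stem cells, Itga6 and Itgb1, named outside the rule, measured 111, 120 and 107 FPKM and 165, 182 and 175 FPKM.

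Of 24 genes that build and export collagen compared at P2 against P0, 1 rose, none fell and 15 were above P0, with a median of 0.04, where 6.72% of all genes compared rose, 57.7% were above P0 and the median was 0.07. Plod2, a lysyl hydroxylase, rose to 55.0 FPKM at P2, against 25.5 at P0, though its log2 difference of 1.08 was 0.95 with median-of-ratios scaling. The prolyl hydroxylase subunit gene P4ha2 measured 7.65, 13.5 and 15.8 FPKM at P0, P1 and P2, the collagen chaperone gene Fkbp10 23.3, 42.4 and 40.5 FPKM and Serpinh1, which encodes the collagen chaperone HSP47, 36.0, 39.6 and 50.1 FPKM. Pomgnt1, which acts on the sugars of the laminin receptor dystroglycan, had a log2 difference at P2 of 0.64. P4ha2, Fkbp10, Serpinh1 and Pomgnt1 did not reach the limit. The log2 difference of P4ha2 at P2 was 0.96, and 1.03 with a pseudocount of 0.1.

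Among matrix proteases and their inhibitors, 8 of 16 compared rose at P2 against P0 and none fell, with a median of 1.06. Over all genes compared, 6.72% rose and 1.16% fell, with a median of 0.07. Of the 16, 12 already stood at FPKM 1 or more at P0. Mmp9, which cleaves type IV collagen, measured 6.69, 9.36 and 22.0 FPKM at P0, P1 and P2. The plasminogen activator gene Plau measured 0.699, 2.86 and 4.50 FPKM, and its inhibitor Serpine2 reached 47.7 FPKM at P2, against 9.78 at P0. The serine protease gene Htra1 rose to 14.2 FPKM at P2, against 4.86 at P0. Serpinb9b, a serpin that the list counts as an inhibitor, rose to 5.80, against 0.702, and its action on matrix proteases was not tested. The proteases Mmp9, Plau and Htra1 and the inhibitor Serpine2 are thus among those that rose.

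None of the relatives of Sparc that were compared passed the limit. Of 13 genes in the list of the SPARC family and other matricellular proteins, 7 were compared at P2 against P0. Of the 7, 3 rose, none fell, and the median was 0.75, where 6.72% of all genes compared rose, 1.16% fell and the median was 0.07. The 3 that rose are Thbs1 (thrombospondin), Ccn1 and Ccn2, at 5.35, 22.8 and 25.3 FPKM at P2, against 1.76, 10.4 and 8.42 at P0, and Ccn1 had a log2 difference of 0.93 with median-of-ratios scaling and 0.96 with quantile normalization, where Thbs1 had 0.99. The SPARC relatives Spock2 and Fstl1 had log2 differences at P2 of 0.75 and -0.42, and Smoc1, named outside the rule, of 0.18. Spp1, osteopontin, measured 171, 110 and 98.6 FPKM at P0, P1 and P2. Sparcl1 (hevin), a close relative of Sparc, was at 0.0718 FPKM or less in every library.

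**Figure D4:**
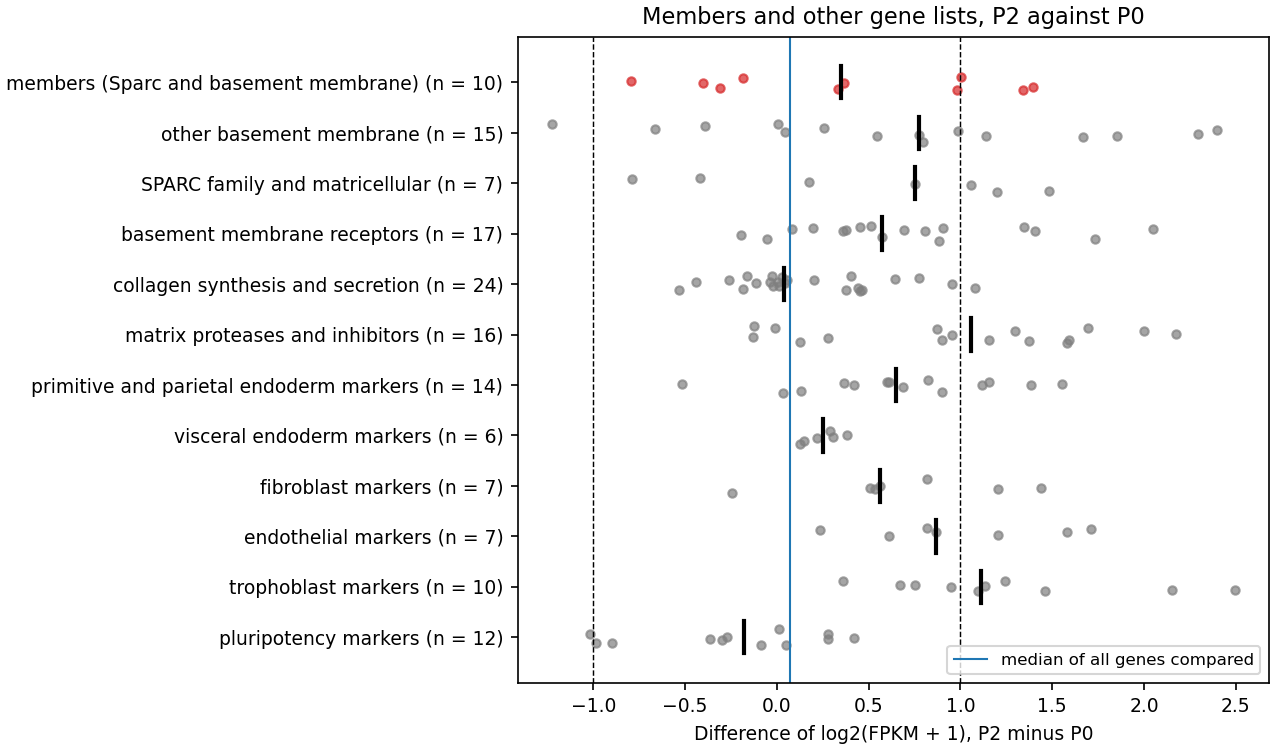
Difference of log2(FPKM + 1), P2 minus P0, for each gene with FPKM of at least 1 in either library, by list (points; vertical position within a list is arbitrary). Black bars are list medians, the blue line is the median of all genes compared (0.07) and dashed lines mark the limit of 1. The members spread from -0.79 to 1.39 around a median of 0.35.

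Profiles like that of Sparc were sought among all genes. Among 7258 genes with a mean FPKM of at least 10, 7 lay within 0.1 of Sparc by Euclidean distance of their log2 differences from P0 at P1 and P2, over 3 libraries. The nearest was the metallothionein gene Mt1, with 147, 308 and 372 FPKM at P0, P1 and P2 and a distance of 0.024. Pam, Hsdl2, Tax1bp3 and the noncoding Abhd11os followed, with distances of 0.071 to 0.087. Around the median of the members, 201 genes lay within 0.1, and Idi1, Rab11fip3, Npc2 and Focad were among the nearest. With 3 libraries this describes the shape of the profiles only.

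Markers of cells known for making much basement membrane were detected, and some of them were higher at the later passages, as Sparc and type IV collagen were. Of 19 genes listed for primitive and parietal endoderm, 9, 12 and 14 had FPKM of at least 1 at P0, P1 and P2. Their summed level was 151, 170 and 208 FPKM. At P2 against P0 4 of 14 compared rose, with a median of 0.65, where 6.72% of all genes rose, with a median of 0.07. Those reaching FPKM 1 only later lift this count and median. The 4 that rose are Tfpi (10.6, 23.8 and 33.1 FPKM at P0, P1 and P2), Krt8 (21.7, 42.3 and 48.3 FPKM), Krt19 and Plat. Plat was at 0.486 FPKM at P0, and the keratins are found in many epithelia. Krt8 had a log2 difference at P2 of 1.12, and of 0.99 with median-of-ratios scaling, and Plat had 0.94 with quantile normalization. Vim, given outside the rule, had the highest level of the list at P0 and was lower later, with 83.7, 44.3 and 58.3 FPKM and log2 differences from P0 of -0.90 at P1 and -0.51 at P2. The defining factors, given outside the rule, were low: Gata4 measured 3.39, 2.78 and 3.49 FPKM, Gata6 0.607, 0.537 and 1.44, and Sox17 0.125, 0.258 and 0.727. The parietal endoderm marker Thbd was at 0.162, 0.208 and 0.444 FPKM. None of the 19 was at 0 in all libraries. The part of such cells in the Sparc and collagen values was not tested.

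Fibroblasts, which are often used as feeder cells, also make these proteins. Of 20 fibroblast markers, 5, 7 and 7 had FPKM of at least 1 at P0, P1 and P2, with summed levels of 20.6, 33.4 and 39.7 FPKM. At P2 against P0 2 of 7 compared, Col1a1 and Thy1, rose, and the median was 0.56. Beside this list and those below, 6.72% of all genes compared rose at P2 against P0, 1.16% fell and the median was 0.07. Col1a1 measured 1.98, 5.63 and 7.09 FPKM. Given outside the rule, Col1a2 was at 0.282, 0.629 and 0.488 and Col3a1 at 0.143, 0.123 and 0.148. The KH2 docking site lies beside Col1a1, and its part in the Col1a1 values was not tested. Postn, S100a4 and Fap were listed at 0 in all 3 libraries. Of 10 endothelial markers 5, 6 and 7 had FPKM of at least 1 at P0, P1 and P2. At P2 against P0 3 of 7 compared rose (Tek, Tie1 and Eng), with a median of 0.86 over the 7, and Tie1 was at 0.150 FPKM at P0. The summed levels were 48.5, 81.8 and 115 FPKM, of which Pecam1 held 21.5, 16.6 and 33.5 and Eng 18.7, 46.2 and 57.9. Emcn was listed at 0 in all libraries. Of 12 trophoblast markers 4, 10 and 10 had FPKM of at least 1 at P0, P1 and P2, and 6 of 10 compared rose (median 1.11). Of those that rose, Cdx2, Gata3, Hand1, Krt7 and Gcm1 were below FPKM 1 at P0. They were compared only because a later library reached the floor, so this count and median lean upward. Gcm1 reached 7.68 FPKM at P2, against 0.542 at P0. The summed levels were 39.2, 54.5 and 92.1 FPKM, of which Tfap2c, which did not reach the limit, held 25.9, 30.5 and 50.9. Prl3d1 was listed at 0 in all libraries. Of 12 visceral endoderm markers 6 were compared, and none rose or fell (median 0.25; summed levels 40.3, 49.0 and 48.4 FPKM). The part of these cells in the members' values was not tested.

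Checked against the labelled cell type, all 12 pluripotency markers had FPKM of at least 1 in every library, with summed levels of 4676, 4383 and 4683 FPKM at P0, P1 and P2 and a median log2 difference of -0.18 at P2 against P0. Of the 12, 1 fell at P2 against P0, Klf4, and none rose. Esrrb and Tfcp2l1 had log2 differences of -0.90 and -0.98 at P2.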

How the data were processed

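RNA from 3 libraries, P0, P1 and P2, was deposited as 1 table of FPKM values made by the authors, covering 50043 gene IDs. The tools Bowtie2 2.0.6 and TopHat2 2.0.9 and the build mm9 come from the submitters' processing notes, and the sources used here name no counting program, annotation or strand. Symbols came from the gene name table for 49326 IDs. The members and lists were chosen with earlier results of these data known.

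FPKM is whole reads divided by length and library total, so totals were found from the ratio of low genes with equal reads. This gives them only up to a common factor, which was set to 2 by matching lengths to the mean M21 transcript lengths. All read counts, and the width of the intervals, depend on that factor. Reads and length were recovered for 26288 of 26291 IDs above 0 (99.99%, relative tolerance 1e-09). The length multiple nearest to the mean M21 transcript length was used, and among members this decided the multiple only for Lamb1 (shared factor 2). Recovered reads sum to 100.51%, 100.50% and 100.50% of the totals, and without molecular identifiers reads may repeat 1 molecule. The lengths show that a gene's level is not always per full message.

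Named genes are all members, up to 6 genes per list with the largest difference between P2 and P0, the 5 nearest to Sparc and to the members' median, and Pold3; any other gene named, marked in the text or not, was picked after its values were seen, and a few that the rule names are not reported here. The steps were tested on simulated data. Differences used log2(FPKM + 1). As alternatives, the pseudocount was set to 0.1, the floor was set to FPKM 5 or dropped, libraries were scaled by median of ratios, to an equal sum or by quantile normalization, and short RNA genes and unnamed models were left out. Scripts ran in Python 3.11.15 (scipy 1.17.1, numpy 2.4.6; tables in pandas 2.3.3, plots in matplotlib 3.10.9). Promoter windows are from RefSeq (GRCm38.p6).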

Additional observations from a re-analysis of the deposited data

How the results depend on the processing

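All 10 members kept the sign of their log2 difference in all 3 comparisons under the 7 other settings of pseudocount, floor, scaling and gene set. Sparc and Col4a1 stayed past the limit at P2 against P0 in each of them. The count of members that rose at P1 against P0 was 0 with median-of-ratios scaling, against 1 otherwise, and at P2 against P0 it was 2 with that scaling and with quantile normalization, against 3. The members' median at P1 against P0 was 0.25 with median-of-ratios scaling, against 0.37, and at P2 against P0 0.22 with that scaling and 0.30 with quantile normalization, against 0.35. Median-of-ratios scaling moved the median of all genes by -0.11 and -0.12 at P1 and P2, and quantile normalization by -0.10 and -0.12. The share of changed genes that were higher at P2 against P0 was 85.3%, and 70.5% with quantile normalization (74.9% against 88.2% at P1). With a pseudocount of 0.1, 1079 genes rose at P1 and 1569 at P2, against 548 and 905. Per longest M21 transcript, an alternative added after seeing the data, the ratios between members at P0, P1 and P2 were 1.52, 3.67 and 5.49 (Lama5 to Lama1), 0.553, 0.900 and 0.942 (Lamb1 to Lamc1), 2.71, 3.28 and 3.42 (Col4a1 to Col4a2) and 0.982, 1.09 and 1.07 (Nid2 to Nid1), because the length differs by construction. No paired analysis was possible because each passage has 1 library. Genes of few reads are limited by depth: Lamb3 had 31 reads at P0.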
